A study of Homo sapiens with 6 samples.

Results

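Intermediate filament genes and plakin genes were described in SU-CCS-1, an established human line from a clear cell sarcoma, a soft tissue tumor driven by the fusion EWSR1::ATF1 (EA1). The 10 genes were chosen by name, namely the plakins EPPK1, PLEC, DST, MACF1 and DSP, the cytoplasmic filament genes VIM, NES, KRT8 and KRT18, and the nuclear lamin gene LMNA. A row was found for 9 of the 10 among 18118 genes. Each of these 18118 genes had at least 6 counts in its highest library, so genes with fewer reads may have been left out. A missing row therefore does not tell few reads from no reads, or from a gene missing in the annotation. KRT18 had no row and is not analysed here as a gene. KRT8 had too few counts for the test, so 8 of the 10 were tested. The rule for choosing the genes was a list of symbols, drawn up with earlier results of these libraries in view. The differences of these 10 genes and their calls are therefore given as a description, without p values. The 6 libraries were 2 of cells transfected with a negative control siRNA (labelled KD scramble control), 2 with EA1 siRNA 1 (labelled KD EA1-1) and 2 with EA1 siRNA 2 (labelled KD EA1-2), all from the same line. RNA was taken 48 h after transfection of 5 pmol siRNA per well, and the study's methods describe a single siRNA against EA1 where the labels list a pair. Whether replicates came from separate cultures is not stated, so errors and p values measure only the spread between these libraries, which may be technical.

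Intermediate filaments are rope-like polymers that give cells mechanical strength. Vimentin (VIM) is the filament protein of mesenchymal cells, nestin (NES) joins it in progenitor cells of neural and muscle lineages, and keratins 8 and 18 pair in simple epithelia. Lamins line the inside of the nuclear envelope. Plakins are very large linker proteins that tie these filaments to junctions, to actin and to microtubules. Clear cell sarcoma shares a melanocytic, neural crest-like expression program with melanoma, and vimentin is usual in tumors of that kind.

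Between 5942808 and 7599305 reads were counted per library. At these totals 3 counts, taken as the smallest level that can be told from 0, correspond to 0.395 to 0.505 CPM (read counts scaled to the total of the library), and this floor covers counting error only. Levels below are CPM normalized by the TMM method of edgeR, with 14571 genes tested. As in the study, a positive log2FC stands for a higher level in control than after knockdown, and each is given ± its standard error. ATF1, whose row takes reads from the fusion as well as from the intact allele, stood at 82.2 and 87.4 CPM in control and at 20.3 to 22.3 CPM in the knockdown libraries. Its log2FC was 2.03 ± 0.13 and 1.94 ± 0.13 with the respective EA1 siRNAs (adjusted p = 6.70e-07 and 1.05e-06, edgeR). EWSR1, the other fusion partner, whose row takes reads from the fusion too, had 0.11 and 0.04 and was not called. How the fall divides between the fusion and intact ATF1 cannot be told from these rows. SOX10, MITF, PMEL and S100B, which mark the melanocytic lineage, were counted in every library. Not all genes of that marker list were. MLANA had 4 and 0 counts in control, and FOXD3 had 2 and 1 in control and 10 and 0 with EA1 siRNA 2. Of 15 epithelial marker genes written from general knowledge, 6 had a row. EPCAM and CDH1 had no row, which does not show that they had no reads. Fibroblast markers summed to at most 23.0 CPM in any library, and leukocyte and endothelial markers to at most 7.58 CPM. The whole epithelial list summed to 22.9 to 27.2 CPM in control, 75.3 to 81.4 CPM with EA1 siRNA 1 and 70.6 to 84.7 CPM with EA1 siRNA 2. ESRP1 alone made up most of this sum, at 19.3 and 13.5 CPM in control and 69.1 to 80.3 CPM after knockdown. The rest of the epithelial list summed to 7.93 and 9.39 CPM in control and 1.54 to 4.45 CPM after knockdown.

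The plakins and filament genes did not move as 1 group. EPPK1 was about 6-fold lower after knockdown with either EA1 siRNA, DSP about 3-fold lower and NES slightly lower. VIM and LMNA were about 2-fold higher, and MACF1 was modestly higher. PLEC and DST passed the threshold with 1 EA1 siRNA each. With EA1 siRNA 1, 7 of the 8 tested genes were called at an adjusted p under 0.05 in edgeR's quasi-likelihood test, 3 higher in control and 4 lower. Over all tested genes 40.1% were called, 20.3% higher in control and 19.9% lower. With EA1 siRNA 2, 7 of the 8 were also called, 4 higher in control and 3 lower. Over all tested genes 36.7% were called, 18.2% higher in control and 18.5% lower. Called with each EA1 siRNA were 3 of the 8 higher in control and 3 lower, beside 15.1% and 14.8% of all tested genes. Against the mean of both EA1 siRNAs, 6 of the 8 were called, 3 in each direction, beside 43.5% of all tested genes, 22.1% higher in control and 21.5% lower. For 6 of the 8, both control libraries lay on one side of all 4 knockdown libraries, 3 above and 3 below, as was the case for 55.4% of all tested genes, 27.3% above and 28.1% below. The median log2FC of the 8 was -0.17 for EA1 siRNA 1 against 0.17 for EA1 siRNA 2, beside -0.02 and -0.00 over all tested genes. Both comparisons share the control libraries. In bulk RNA, fewer cells of a kind and less RNA per cell cannot be told apart.

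**Figure D1:**
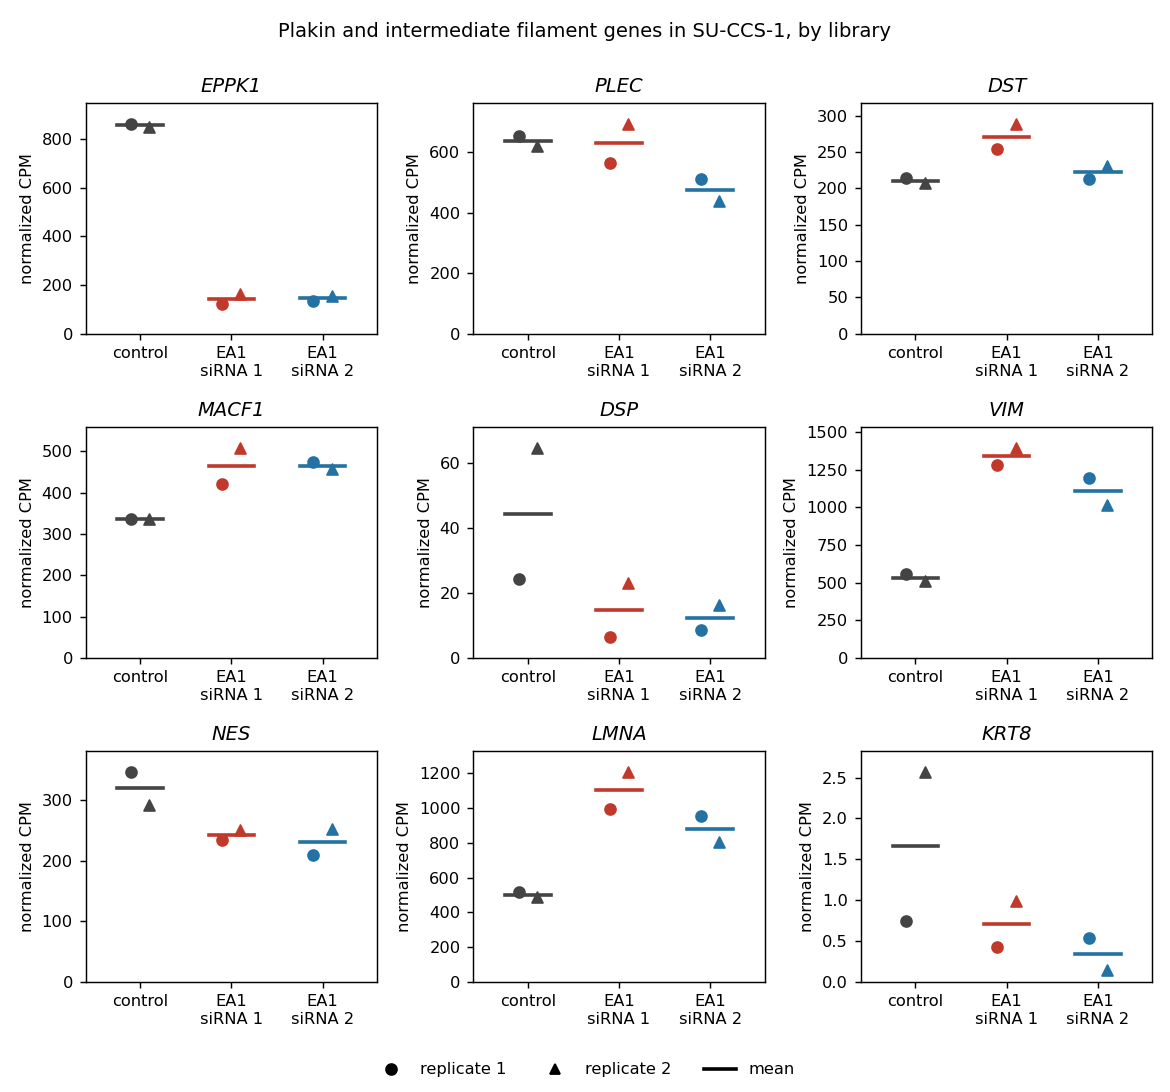
Normalized CPM (y axis, each panel starting at 0) of the 9 genes with a row, in control cells and with each EA1 siRNA (x axis). Circles are replicate 1, triangles replicate 2 and horizontal lines the mean of both. EPPK1 drops from 861 and 850 CPM in the control libraries to at most 162 CPM in the knockdown libraries, whereas VIM and LMNA rise, and DSP lies higher in replicate 2 than in replicate 1 of every condition.

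EPPK1 encodes epiplakin, a plakin made almost wholly of plakin repeats that binds keratin and vimentin networks. The gene (ENSG00000261150) lies on the minus strand of chromosome 8 from 143857324 to 143878467 of hg38. It stood at 861 and 850 CPM in the control libraries, at 122 and 162 CPM with EA1 siRNA 1 and at 135 and 157 CPM with EA1 siRNA 2. All 4 knockdown libraries were far below both control libraries, and the EA1 siRNAs overlapped. Its log2FC was 2.59 ± 0.14 for EA1 siRNA 1 against 2.55 ± 0.14 for EA1 siRNA 2, a 6.03-fold and a 5.87-fold lower level after knockdown. These values stood at percentiles 98.3 and 98.4 of all tested genes. In control cells EPPK1 ranked 88th of all genes by CPM, which favors long transcripts. Epiplakin's repeats resemble each other closely, and how reads that fit several of them were counted is not given in the sources used here.

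PLEC encodes plectin, the linker that joins intermediate filaments to hemidesmosomes, the nuclear envelope and actin. It lies next to EPPK1 on the same strand, from 143915153 to 143976734, with 36.7 kb between the genes. PLEC stood at 654 and 620 CPM in control, 564 and 693 CPM with EA1 siRNA 1, and 512 and 440 CPM with EA1 siRNA 2. The EA1 siRNA 1 libraries spanned the control values, while both EA1 siRNA 2 libraries lay below them. The log2FC was 0.02 ± 0.12 with EA1 siRNA 1, not called, and 0.42 ± 0.13 with EA1 siRNA 2, which was called. Without replicate 1 of the control, the latter was 0.38 and was not called. Of the nearest tested genes, NRBP2, on the other side of EPPK1, was higher after knockdown, with a log2FC of -1.18 ± 0.13 for EA1 siRNA 1 against -1.06 ± 0.13 for EA1 siRNA 2. ENSG00000288096, between EPPK1 and PLEC, had 1.30 ± 0.61 and 1.38 ± 0.62, and PARP10, beyond PLEC, 0.07 ± 0.14 and 0.03 ± 0.14, and neither was called. These neighbors were named for their position, after their values were seen.

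DST and MACF1 are the spectraplakins, giants that bridge actin, microtubules and, in some isoforms, intermediate filaments. DST encodes dystonin, known also as the bullous pemphigoid antigen of hemidesmosomes, and lies on chromosome 6 from 56457987 to 56954830. It stood at 214 and 207 CPM in control, 253 and 289 CPM with EA1 siRNA 1, and 213 and 231 CPM with EA1 siRNA 2. Both EA1 siRNA 1 libraries were above the control libraries, whereas those of EA1 siRNA 2 overlapped them. The log2FC was -0.36 ± 0.10 with EA1 siRNA 1, called, and -0.08 ± 0.10 with EA1 siRNA 2, not called. The former was no longer called without replicate 1 of the control (-0.39), without replicate 2 of the control (-0.31) or without replicate 2 of EA1 siRNA 1 (-0.25).

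MACF1, which guides microtubule growth along actin, lies on chromosome 1 from 39081316 to 39487177. Both control libraries stood at 337 CPM, with 422 and 509 CPM for EA1 siRNA 1 and 474 and 458 CPM for EA1 siRNA 2. All 4 knockdown libraries were above the control libraries. The log2FC was -0.47 ± 0.11 and -0.47 ± 0.11 with the respective EA1 siRNAs, a 1.38-fold higher level with each. Without replicate 2 of the control it was -0.43 with either EA1 siRNA and was not called, and without replicate 2 of EA1 siRNA 1 the log2FC for that siRNA was -0.30 and was not called.

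DSP encodes desmoplakin, the plakin that anchors filaments at desmosomes, and lies on chromosome 6 from 7541338 to 7586714. It was the lowest of the plakins, at 24.2 and 64.8 CPM in control, 6.26 and 23.1 CPM with EA1 siRNA 1, and 8.54 and 16.1 CPM with EA1 siRNA 2. Both control libraries exceeded every knockdown library, but replicate 1 of the control did so by little. Replicate 2 was higher than replicate 1 in each condition, by 2.67 times in control, 3.68 times with EA1 siRNA 1 and 1.89 times with EA1 siRNA 2. The log2FC was 1.64 ± 0.52 for EA1 siRNA 1 against 1.83 ± 0.53 for EA1 siRNA 2, both called, a 3.11-fold and a 3.56-fold lower level after knockdown. Without replicate 2 of the control the values were 0.78 and 0.99 and neither was called. Without replicate 1 of EA1 siRNA 1 the value for that siRNA was 0.95 and was not called. DESeq2 over all 6 libraries gave 1.62 and 1.86 and called neither.

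The makeup of plakin RNA shifted with these differences. Per kilobase of exon, EPPK1 made up 52.1% and 51.3% of the summed plakin level in the control libraries, 14.5% and 15.4% after EA1 siRNA 1, then 16.7% and 20.3% after EA1 siRNA 2. PLEC made up 37.3% and 35.3% in control, 63.2% and 62.0% after EA1 siRNA 1, then 59.9% and 53.8% after EA1 siRNA 2, and so took the leading place. MACF1 went from 4.62% in both control libraries to between 11.0% and 13.5% in the knockdown libraries. With the length of the longest protein-coding transcript in place of all merged exons, the EPPK1 share was 44.2% and 43.3% in control and 10.4% to 14.3% after knockdown, and that of MACF1 11.4% and 11.3% in control and 23.1% to 27.5% after knockdown.

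VIM, on chromosome 10 from 17228241 to 17237593, stood at 558 and 508 CPM in control, 1281 and 1396 CPM with EA1 siRNA 1, and 1197 and 1015 CPM with EA1 siRNA 2. Every knockdown library was far above both control libraries. The log2FC was -1.33 ± 0.12 for EA1 siRNA 1 against -1.05 ± 0.12 for EA1 siRNA 2, a 2.51-fold and a 2.08-fold higher level after knockdown. Exons of VIM overlap those of VIM-AS1 on the opposite strand over 656 bases, and without the strand setting their reads cannot be told apart. VIM-AS1 had no row of its own, and VIM had at least 3727 counts in every library. NES, whose protein polymerizes with vimentin rather than alone, lies on chromosome 1 from 156668763 to 156677407 and went the other way. It stood at 347 and 293 CPM in control, 234 and 252 CPM with EA1 siRNA 1, and 210 and 253 CPM with EA1 siRNA 2. Both control libraries were above every knockdown library, replicate 2 of the control by the smaller margin. The NES log2FC was 0.40 ± 0.12 and 0.47 ± 0.12 with the respective EA1 siRNAs, both called. Without replicate 1 of the control the values were 0.27 and 0.34 and were not called, and the former was also lost without either replicate of EA1 siRNA 1 (0.34 and 0.47). Per kilobase of merged exons, the ratio of VIM to NES was 1.73 and 1.87 in control, 5.89 and 5.97 after EA1 siRNA 1, then 6.13 and 4.32 after EA1 siRNA 2. With the longest protein-coding transcripts the ratio was 4.15 and 4.49 in control and 10.4 to 14.7 after knockdown.

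LMNA encodes lamins A and C, the A-type lamins that stiffen the nucleus, and lies on chromosome 1 from 156082573 to 156140081. It stood at 514 and 487 CPM in control, 996 and 1209 CPM with EA1 siRNA 1, and 953 and 805 CPM with EA1 siRNA 2. No knockdown library overlapped the control libraries. The log2FC was -1.14 ± 0.13 for EA1 siRNA 1 against -0.81 ± 0.13 for EA1 siRNA 2, a 2.20-fold and a 1.76-fold higher level after knockdown. For VIM, LMNA and EPPK1, every alternative setting kept the direction and the call with each EA1 siRNA.

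**Figure D2:**
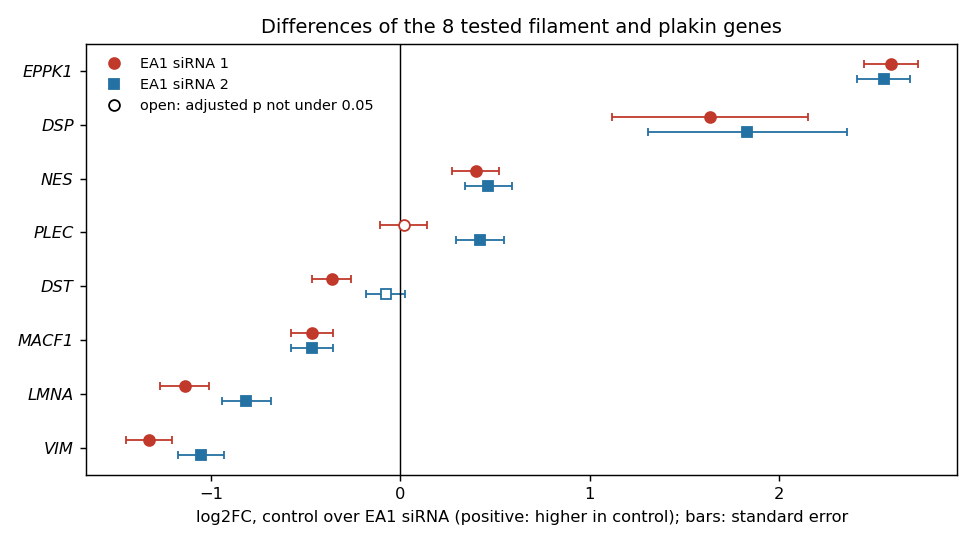
Difference of the 8 tested genes on the log2 scale (x axis, log2FC of control over knockdown, bars one standard error), ordered by their mean over both EA1 siRNAs. Circles are EA1 siRNA 1, squares EA1 siRNA 2, and open symbols did not reach an adjusted p under 0.05; EPPK1 lies at 2.59 and 2.55, VIM at -1.33 and -1.05.

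Few reads were counted on the row of keratin 8. KRT8, on chromosome 12 from 52897187 to 52949954, was counted 5 and 20 times in control, 3 and 6 times after EA1 siRNA 1, and 3 and 1 times after EA1 siRNA 2, and the conditions overlapped. More reads lay on 9 rows of processed KRT8 pseudogenes, which are intronless copies elsewhere in the genome, with summed counts of 120 and 130 in control, 116 and 102 after EA1 siRNA 1, then 77 and 104 after EA1 siRNA 2. On KRT18 pseudogenes, 5 rows summed to between 38 and 69 counts per library. An aligner that does not model splicing can place reads across exon junctions on such copies, so the level of either keratin is uncertain. With the pseudogene rows added to KRT8 the level was 18.7 and 19.3 CPM in control, 16.9 and 17.8 CPM with EA1 siRNA 1, and 14.2 and 14.7 CPM with EA1 siRNA 2. Its log2FC was then 0.13 ± 0.17 and 0.39 ± 0.18 with the respective EA1 siRNAs and was not called. Exons of KRT8 and KRT18 also overlap on opposite strands over 525 bases.

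Compared per kilobase of merged exons, VIM was highest in control cells at 103 ± 6.79 CPM per kilobase (SD, n = 2), followed by LMNA at 61.5 ± 2.40, NES at 57.5 ± 6.94, EPPK1 at 53.4 ± 0.51 and PLEC at 37.5 ± 1.42 (SD, n = 2 each). MACF1 stood at 4.77 ± 0.002, DST at 4.37 ± 0.11, DSP at 3.27 ± 2.11 and KRT8 at 0.24 ± 0.19 CPM per kilobase (SD, n = 2 each). LMNA and NES, NES and EPPK1, DST and DSP, and MACF1 and DSP were not separated beyond the spread of their libraries. VIM and LMNA also led with each EA1 siRNA, at 259 ± 15.7 and 135 ± 18.4 CPM per kilobase for EA1 siRNA 1 and at 214 ± 24.9 and 108 ± 12.9 for EA1 siRNA 2 (SD, n = 2 each), while EPPK1 moved from the fourth to the fifth place at 8.87 ± 1.79 and 9.09 ± 0.97. With the longest protein-coding transcript as the length, the order in control was unchanged, whereas EPPK1 then ranked 7th of the 9 for EA1 siRNA 1 and 6th for EA1 siRNA 2.

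**Figure D3:**
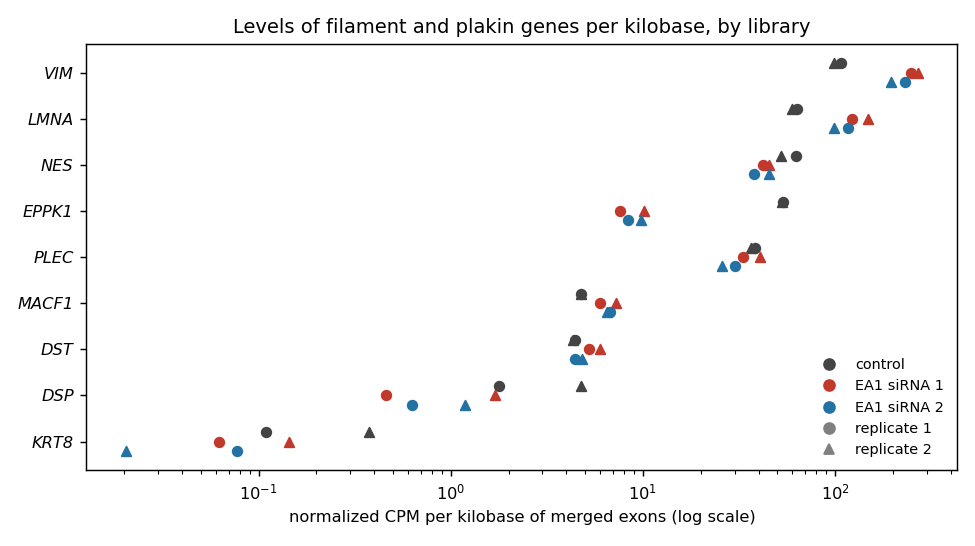
Level of each of the 9 genes in every library, as normalized CPM per kilobase of merged exons on a log axis; grey is control, red EA1 siRNA 1 and blue EA1 siRNA 2, circles replicate 1 and triangles replicate 2. EPPK1 leaves the group of LMNA, NES and PLEC after knockdown and stands at a mean of 8.87 and 9.09 CPM per kilobase, and KRT8 is at most 0.374 in any library.

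The EA1 siRNAs were also compared with each other. None of the 8 tested genes was called in edgeR's quasi-likelihood test, where 2.24% of all tested genes were called, 0.796% higher and 1.44% lower with EA1 siRNA 1, and DESeq2 over all 6 libraries called 0 of them. At an unadjusted p under 0.05 the same edgeR test had 4 of the 8, beside 17% of all 14571 tested genes. For PLEC the level was 0.40 ± 0.13 higher on the log2 scale with EA1 siRNA 1 than with EA1 siRNA 2, for LMNA 0.33 ± 0.13, for DST 0.29 ± 0.10 and for VIM 0.27 ± 0.12. The corresponding values were -0.04 ± 0.14 for EPPK1 and -0.00 ± 0.11 for MACF1. Without replicate 1 of EA1 siRNA 2, PLEC was called at 0.51.

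For each of the 8 genes, the other tested gene with the most similar pattern was found by the Euclidean distance of log2 CPM centered on each gene's mean over the 6 libraries. The nearest was TLN1 for MACF1, at a distance of 0.057, which encodes talin, the linker of integrins to actin. It was ZNF76 for DST (0.062), DNTTIP1 for NES (0.095), ZSWIM4 for LMNA (0.107), C2orf49-DT for PLEC (0.138), UBE2H for VIM (0.148), RPH3AL-AS1 for EPPK1 (0.225) and GAL for DSP (0.512). DSP had the least close neighbor. These distances describe 6 libraries that share 3 conditions.

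Sequences at the starts of these genes were searched for some of the motifs that the study found at EA1 binding sites, and for an ATF/CREB half-site. The study's variant of the ATF/CREB site, with other bases at its center, was not searched. Its TGA repeats allowed gaps, whereas the search here did not. In the study, variant motifs and repeats lay mainly far from gene starts, so windows at starts cannot be compared with those sites. Promoter windows of RefSeq (GRCh38.p14, 250 bases before to 50 after each start) were listed for 7 of the 10 genes, 13 windows in all, and EPPK1, PLEC and KRT18 had no entry. None of the 13 windows held the full ATF/CREB site TGACGTCA, which 1.85% of 35093 windows of the same length held. None held 4 TGA or TCA units in a row, against 0.0598% of all windows. The half-site TGACG, or CGTCA on the other strand, was found in 5 of the 13 windows, of 4 genes, against 24.5% of all windows. The AP1 site TGAGTCA, or TGACTCA on the other strand, was found in 2 of the 13, against 4.95%. These 2 and the half-site windows nearest to a start in NES and LMNA are shown with the motif in capitals, 5′ to 3′ on the gene's strand, because DST, MACF1 and LMNA were higher and NES lower after knockdown with at least 1 EA1 siRNA. A match is a description of the letters, and binding was not measured in these libraries.
DST, AP1 site, minus strand, chr6:56954787-56954816: tcgctgtctgcTGAGTCAtggcaagcgctc
MACF1, AP1 site, plus strand, chr1:39204691-39204720: agatagaggttTGAGTCAgcttgacactgg
NES, half-site, minus strand, chr1:156677358-156677387: ccccgccccgcccCGTCAttgtccccgtcg
LMNA, half-site, plus strand, chr1:156082487-156082516: gcagcatgaaacTGACGggaggggggcgcg

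The DST site begins 26 bases after the listed start and the MACF1 site 8 bases after it, at a start within the gene. In NES the half-site begins 34 bases after the start, and in LMNA 74 bases before it. The genes with the largest differences in either direction among those with an entry, DSP and VIM, held none of these motifs in their windows.

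Other cytoplasmic intermediate filament genes were followed as a list of 34, of which 9 had a row and 6 were tested. With each EA1 siRNA, 3 of the 6 fell after knockdown and none rose, and all 3 were keratins. Over all tested genes, 15.1% fell and 14.8% rose with each EA1 siRNA, shares that also stand beside the counts of the later lists. KRT10, the remaining tested keratin, had a log2FC of -0.06 and -0.46 and was not called. KRT17, a keratin of stressed and basal epithelia, was counted 227 and 579 times in control, 1 and 7 times after EA1 siRNA 1, and 5 and 2 times after EA1 siRNA 2. Control libraries held far more than any knockdown library, although they differed from each other by over 2 times. Its log2FC was 6.43 ± 0.57 and 6.58 ± 0.58, at an adjusted p of 5.92e-06 and 7.34e-06 (edgeR, Benjamini-Hochberg). KRT80 went from 55 and 51 counts in control to 4 to 7 counts in the knockdown libraries (log2FC 3.24 and 3.08, adjusted p = 2.13e-04 and 3.37e-04 in the same edgeR test). KRT86, a hair keratin whose reads may be shared with close paralogs such as KRT81, had 24 and 40 counts in control and 4 to 12 after knockdown (log2FC 2.50 and 1.55, adjusted p = 0.00287 and 0.0253 in the same edgeR test). The KRT86 call with EA1 siRNA 2 was lost without any single one of the control or EA1 siRNA 2 libraries, where its log2FC ranged from 1.30 to 1.83, and with DESeq2. Keratins share sequence too, so reads may be split between KRT17 and its near copies. The median log2FC of the 6 genes was 1.62 and 1.09, beside -0.02 and -0.00 over all tested genes. NEFL, a neurofilament gene, had a log2FC of 0.74 and 0.62 and was not called (adjusted p = 0.0752 and 0.133 in the same edgeR test), but without replicate 2 of the control it was called at 1.20 and 1.09, without replicate 1 of EA1 siRNA 2 at 0.76 and 0.93, and without replicate 2 of EA1 siRNA 2 at 0.76 for EA1 siRNA 1.

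Partners of the plakins at junctions were a list of 18 genes, of which 10 had a row and 6 were tested. JUP and PKP4 fell with each EA1 siRNA, ITGA6 was called with EA1 siRNA 1, where it rose, and not with EA1 siRNA 2, a difference of 0.38 that was itself not called, and 3 were not called with either. The ITGA6 call was lost without replicate 1 of the control (-0.45) or replicate 2 of EA1 siRNA 1 (-0.32). JUP encodes plakoglobin, which binds desmoplakin at the desmosome. It was counted 136 and 346 times in control, 47 and 64 times after EA1 siRNA 1, and 31 and 45 times after EA1 siRNA 2. The JUP log2FC was 1.93 ± 0.34 and 2.45 ± 0.36, with adjusted p values of 9.39e-04 and 3.03e-04 in the edgeR test. As for DSP and KRT17, the control replicates differed, with replicate 2 at 2.19 times replicate 1. PKP4, a p120-related armadillo protein, had a log2FC of 0.40 and 0.41 (adjusted p = 0.0489 and 0.0484 in the same edgeR test), and its calls were lost without any single library of the control or of EA1 siRNA 1, for EA1 siRNA 2 also without replicate 1 of that siRNA, and with DESeq2. Without these libraries its log2FC ranged from 0.20 to 0.48. The desmosomal cadherins DSG2 and DSC2 were not called, with log2FC values of 0.18 and 0.15 for EA1 siRNA 1 and -0.02 and -0.01 for EA1 siRNA 2. EVPL and PPL, the remaining plakins, had no row.

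At the nuclear lamina, the B-type lamins moved opposite to LMNA. The list of 16 lamina and LINC complex genes, which connect the nucleus to the cytoskeleton, was tested in full, and 7 fell after knockdown with each EA1 siRNA while 2 rose with each. Of all tested genes, 15.1% fell and 14.8% rose with each. LMNB1 stood at 142 ± 0.141 CPM in control, 35.7 ± 2.34 CPM after EA1 siRNA 1 and 62.5 ± 11.6 CPM after EA1 siRNA 2 (SD, n = 2 each). Its log2FC was 1.99 ± 0.13 and 1.18 ± 0.13, with adjusted p values of 1.00e-06 and 3.44e-05 in the edgeR test. LMNB2 had a log2FC of 0.91 and 0.53 (adjusted p = 4.77e-05 and 0.00227 in the same edgeR test). TMPO, which encodes the lamin-binding LAP2 proteins, had 1.42 and 1.01 (adjusted p = 1.43e-06 and 1.61e-05, edgeR), and LBR, the lamin B receptor, 0.76 and 1.15 (adjusted p = 7.97e-04 and 5.71e-05, edgeR). BANF1, a DNA-bridging protein of the envelope, and SYNE1, a nesprin, rose after knockdown, with log2FC values of -0.93 and -0.90 for BANF1 (adjusted p = 9.72e-05 and 1.53e-04, edgeR) and -0.61 and -0.54 for SYNE1 (adjusted p = 6.42e-04 and 0.00159, edgeR). Per kilobase of merged exons, the ratio of LMNA to LMNB1 was 1.62 and 1.53 in control, 11.9 and 15.8 after EA1 siRNA 1, then 7.84 and 5.08 after EA1 siRNA 2. With the longest protein-coding transcripts it was 3.30 and 3.12 in control, 24.2 and 32.2 for EA1 siRNA 1, and 16.0 and 10.4 for EA1 siRNA 2. The median log2FC of the 16 genes was 0.11 and 0.08, beside -0.02 and -0.00 over all tested genes.

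**Figure D4:**
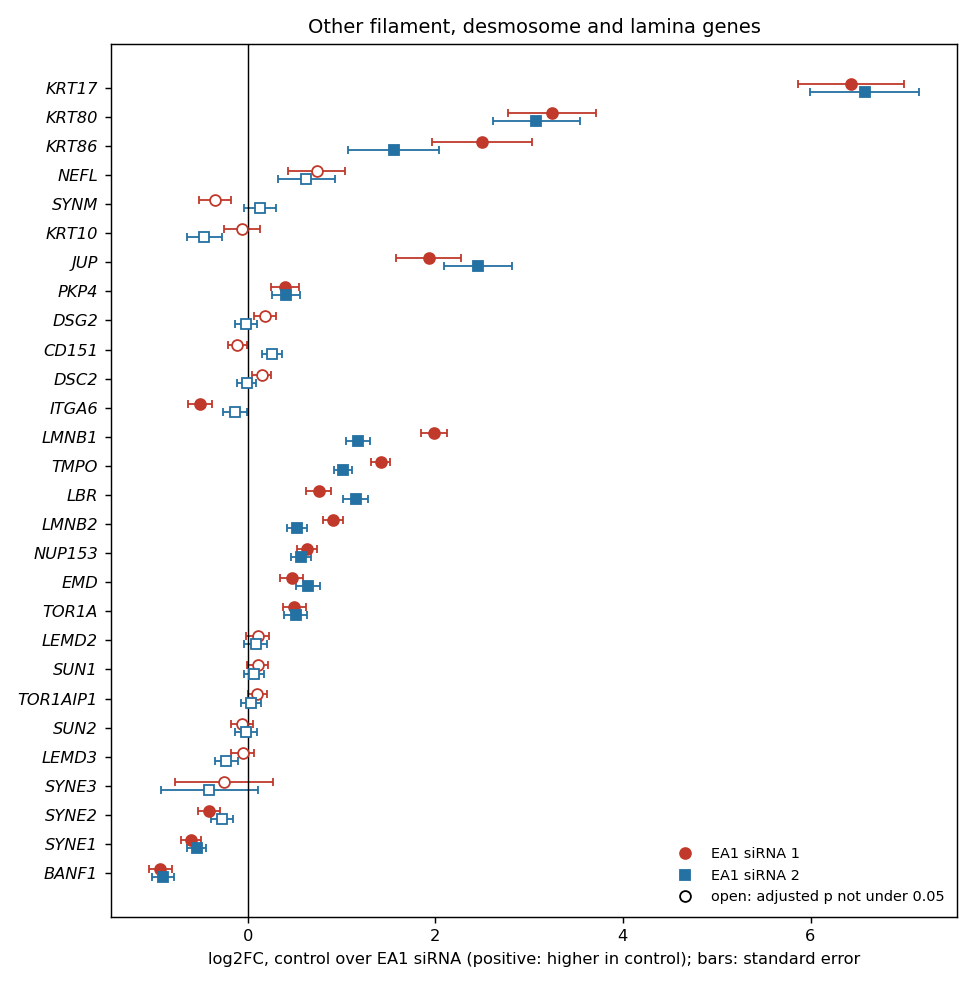
Difference on the log2 scale (x axis, log2FC of control over knockdown, bars one standard error) of 28 tested genes outside the named 10, in the order other filament genes, junction partners and lamina genes. Circles are EA1 siRNA 1, squares EA1 siRNA 2, and open symbols did not reach an adjusted p under 0.05; KRT17 lies at 6.43 and 6.58, and LMNB1 at 1.99 and 1.18.

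Enzymes that mature prelamin A, a list of 5, were all tested. ICMT, which methylates the cut end, fell with each EA1 siRNA (log2FC 0.38 and 0.39, adjusted p = 0.0171 and 0.0184, edgeR), and FNTB, a farnesyltransferase subunit, rose (log2FC -0.88 and -0.48, adjusted p = 4.91e-04 and 0.0225, edgeR). The ICMT calls were lost without replicate 1 of the control (0.34 with each EA1 siRNA), without either replicate of EA1 siRNA 1 for that siRNA (0.36 and 0.42) and without replicate 1 of EA1 siRNA 2 for the other (0.31). The FNTB call with EA1 siRNA 2 was lost without replicate 1 of the control (-0.33). With DESeq2, over all 6 libraries or only the 4 compared, the EA1 siRNA 2 calls of ICMT and FNTB were lost too. ZMPSTE24, the protease that cuts prelamin A, had log2FC values of 0.20 and 0.08 and was not called. Of 12 microtubule plus-end genes, partners of the spectraplakins, 11 were tested. With each EA1 siRNA 4 rose, led by MAPRE3 at a log2FC of -0.94 and -1.25 (adjusted p = 0.0181 and 0.00384, edgeR), MAPRE2 at -0.60 and -0.63, and CLASP2 at -0.61 and -0.52. CLIP1, a microtubule plus-end binding protein, was the only one that fell with each, with a log2FC of 0.61 and 0.82 (adjusted p = 6.24e-04 and 1.01e-04, edgeR). The MAPRE3 call with EA1 siRNA 1 was lost without replicate 2 of the control, replicate 1 of EA1 siRNA 1 or replicate 2 of EA1 siRNA 1 (adjusted p = 0.119, 0.0543 and 0.0953, edgeR).

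Among 14 filament chaperones and kinases, all tested, 4 fell and 2 rose with each EA1 siRNA. HSPB1, the small heat shock protein that binds filaments, rose at a log2FC of -0.76 and -0.85 (adjusted p = 5.60e-04 and 3.10e-04, edgeR), and YWHAZ, a 14-3-3 protein, at -0.33 and -0.44 (adjusted p = 0.0328 and 0.00893, edgeR). The YWHAZ calls were lost without either library of the control (-0.29 to -0.45), and for EA1 siRNA 1 also without either library of that siRNA (-0.32 each). CRYAB, a relative of HSPB1, fell at 0.51 and 0.30 (adjusted p = 0.00236 and 0.0416, edgeR). The other 3 that fell, CDK1, AURKB and PLK1, are mitotic kinases that phosphorylate vimentin, and they belong to the cell division machinery as well. The CRYAB call with EA1 siRNA 2 was lost without replicate 1 of the control (0.24), replicate 2 of the control (0.39), replicate 1 of EA1 siRNA 1 (0.30) or replicate 1 of EA1 siRNA 2 (0.31). It was also lost with DESeq2 or edgeR on only the 4 libraries compared (0.30 and 0.29).

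Transcription factors of the epithelial-mesenchymal transition, a program in which vimentin usually rises and keratins and desmoplakin fall, did not move in 1 direction. Of 10 listed, 8 were tested, and with each EA1 siRNA 3 fell and 2 rose. SNAI2 rose from 212 and 215 counts in control to between 1074 and 1328 after knockdown, with a log2FC of -2.64 and -2.62 (adjusted p = 5.95e-07 and 7.54e-07, edgeR), and ZEB2 rose at -0.97 and -0.85 (adjusted p = 3.04e-05 and 1.03e-04, edgeR). FOXC2 fell at 3.71 and 4.05 (adjusted p = 2.73e-04 and 2.58e-04, edgeR) and SNAI1 at 2.00 and 2.03 (adjusted p = 0.00128 and 0.00138, edgeR). ZEB1, with 115 and 158 counts in control and 64 to 82 after knockdown, was the third that fell, at 0.88 and 0.63 (adjusted p = 0.0101 and 0.0498, edgeR). Its call with EA1 siRNA 1 was lost without replicate 2 of the control (0.78) or replicate 1 of EA1 siRNA 1 (0.83), and that with EA1 siRNA 2 without any single library except replicate 1 of that siRNA (0.40 to 0.73). The ZEB1 call with EA1 siRNA 2 was also lost with DESeq2, with upper-quartile normalization and with edgeR on only the 4 libraries compared. Of the 15 epithelial genes 4 were tested. ESRP1, a splicing factor of epithelia, rose with each EA1 siRNA (log2FC -2.20 and -2.19, adjusted p = 1.98e-06 and 2.44e-06, edgeR) and OVOL1 fell, from 10 and 17 counts in control to 0 to 3. The OVOL1 calls were lost without replicate 1 of EA1 siRNA 1, and with EA1 siRNA 2 also without replicate 1 of the control, replicate 2 of EA1 siRNA 1 or replicate 2 of EA1 siRNA 2. The latter call was also lost with no filter on low counts and with DESeq2 on only the 4 libraries compared. CDH3, with 0 to 18 counts per library, and ELF3, with 4 to 20, were not called. The melanocytic and neural crest list, with all 12 genes tested, moved in the direction of VIM and LMNA. In it 9 genes rose with EA1 siRNA 1 and 8 with EA1 siRNA 2, none fell, and the summed level was 3441 to 3623 CPM in control, 9700 to 9718 CPM with EA1 siRNA 1 and 8548 to 13203 CPM with EA1 siRNA 2. Those with the largest mean log2FC were TYR and DCT, which act in pigment synthesis, and MLANA, a melanocyte antigen. TYR had -2.89 and -3.31, and DCT -2.85 and -3.25. MLANA was counted 4 and 0 times in control and 11 to 24 times after knockdown, at -2.79 and -3.40, so its place rests on few counts. Without replicate 2 of the control the MLANA values were -1.71 and -2.32 and neither was called. The MLANA calls were also lost without either library of EA1 siRNA 1 for that siRNA (-2.61 and -2.92) and without replicate 1 of EA1 siRNA 2 for the other (-2.81). DESeq2 on only the 4 libraries compared did not call MLANA with EA1 siRNA 1 (-2.80). Among the fibroblast markers LUM rose at a log2FC of -2.64 and -3.46 (adjusted p = 0.00109 and 1.53e-04, edgeR) from 12 and 6 counts, and COL1A1 was not called, nor was the leukocyte gene LYZ. The part of these marker lists in the filament values was not tested.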

How the data were processed

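RNA was measured in 6 libraries of SU-CCS-1 cells (TruSeq Stranded mRNA, paired reads). The authors aligned reads to hg38 with BWA-MEM and counted them per gene with featureCounts 1.6.3, and deposited raw counts. The strand setting and annotation are not given in the sources used here. From these counts, edgeR 4.0.16 (R 4.3.3) was run with filterByExpr (minimum count 10, minimum total 15), TMM normalization and a quasi-likelihood test over 3 conditions. Benjamini-Hochberg adjustment covered all 14571 genes tested, and genes at an adjusted p under 0.05 were called. The standard error is the log2FC divided by the square root of F. The fit was tested on simulated data with the same spread for every gene, which is simpler than these libraries. DESeq2 1.42.0, other filters and scalings, a replicate block and the omission of each library were alternatives. Positions and lengths are from GENCODE 44.

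The 10 genes were chosen with earlier results of these data known, and the lists were written from general knowledge to go with them. Lists were described by counts and medians. Named were the 10 genes, EWSR1 and ATF1, from each list up to 3 genes per direction with the largest mean log2FC among those called with each EA1 siRNA, those called between the EA1 siRNAs, every gene tested of lists with at most 4 such genes, and the nearest gene of each of the 10. NRBP2, ENSG00000288096, PARP10, NEFL, KRT10, ITGA6, DSG2, DSC2, LMNB2, ZMPSTE24, CRYAB, SOX10, SOX9, MITF, PMEL, S100B and FOXD3 were named outside this rule, for their role, place or values, after their values were seen. A planned comparison of protein sequences was not run, since protein sequences were not used here.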

Additional observations from a re-analysis of the deposited data

Results flagged for a closer look

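Of the genes tested in the lists, 3 differed between the EA1 siRNAs in edgeR's quasi-likelihood test of that difference. LMNB1, a B-type lamin, was lower with EA1 siRNA 1 than with EA1 siRNA 2, at a difference of -0.81 on the log2 scale (adjusted p = 0.0141, edgeR), with 263 and 207 counts against 305 and 504. The call was lost without replicate 1 of EA1 siRNA 1 (-0.88) or replicate 2 of that siRNA (-0.74). PLK1, a mitotic kinase that phosphorylates vimentin, was also lower with EA1 siRNA 1, at -0.49 (adjusted p = 0.0390, edgeR), and this call was lost without any single library except replicate 1 of EA1 siRNA 2 (-0.56 to -0.41). ERBB3, a receptor kinase of the neural crest lineage, was higher with EA1 siRNA 1, at 1.30 (adjusted p = 0.00246, edgeR), with 4118 and 4233 counts against 1322 and 2036.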

How the results depend on the processing

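No direction of a called value reversed under any alternative run. The count of the 8 genes called was 7 with EA1 siRNA 1 and 4 to 7 when 1 library was left out, the 4 arising without replicate 2 of the control or replicate 2 of EA1 siRNA 1. Between the EA1 siRNAs the count was 0, and 0 to 1 with 1 library left out. Between the EA1 siRNAs 3 list genes were called, and 1 to 7 with 1 library left out. Replacing the full ATF/CREB site by a half-site moved the number of promoter windows from 0 to 5. KRT17 and KRT80 were not tested when 10 counts were required in every library, and KRT18 could not be fitted. Where an omission left 1 library in a condition, that library was assumed to vary like the others.

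The labels number the replicates, but with 2 numbers and no stated shared batch they do not establish a pairing. Deviations of same-numbered libraries correlated at 0.130, 0.199 and 0.144. With the replicate number as a block, the genes called numbered 7 with each EA1 siRNA and 7 against their mean, the list genes called between the EA1 siRNAs numbered 8, and the DSP log2FC was 1.65 and 1.82 (standard error 0.19 and 0.20). Among list genes named in the text the block added the calls of NEFL (0.71 and 0.58) and, with EA1 siRNA 2, of ERBB3 (-0.39) and KRT10 (-0.46). Between the EA1 siRNAs it added those of ITGA6 (0.38), LMNB2 (-0.38), TMPO (-0.40) and TYR (-0.42). Totals of 5942808 to 7599305 counts limit KRT8, OVOL1 and other genes with few counts.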
